A study of Mus musculus with 14 samples.

Results

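MM401 P2 cells were compared with embryonic stem cells (ESC) by RNA-seq, with 2 libraries in each group. These 4 of the 14 libraries of the series were chosen by their labels alone. MM401 is a compound that inhibits the histone methyltransferase Mll1 (gene Kmt2a). The MM401 P2 libraries came from mouse epiblast stem cells (EpiSC), cells of the later, primed epiblast state, that were held for 6 days, to passage 2, in LIF, serum replacement (KSR) and KO-DMEM with 100 µM MM401. The ESC libraries came from blastocyst-derived cells that were grown with LIF and KSR in GMEM together with feeder cells. Both groups carry the genotype CD1/JF1, and the labels name an embryo as the source of both. The cells of both groups had received LIF, but they differed in origin, basal medium, MM401, recorded feeder cells and sequencing depth, and these differences cannot be told apart in this comparison. Libraries of 3 other groups are given beside them where they help. These are EpiSC of genotype CD1/JF1 grown in KO-DMEM with KSR and bFGF, the same cells after 3 days in LIF, KSR, KO-DMEM and 100 µM MM401 (MM401 day 3), and rES, reverted lines of genotype CD1-deltaTSIX/JF1 that were kept at 25 µM MM401, at passage 6. Any comparison of these groups with ESC uses the same 2 ESC libraries.

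Mouse pluripotent cells exist in a naive state, like the inner cell mass of the blastocyst, and in a primed state, like the epiblast after implantation. Naive cells depend on LIF signalling through Stat3 and on a network of transcription factors that includes Esrrb, Klf2, Klf4, Tfcp2l1 and Tbx3, while primed cells depend on FGF and activin and express Fgf5, Otx2 and Dnmt3b. Mll1 is a member of the Trithorax group that methylates lysine 4 of histone H3 and is best known for maintaining the expression of Hox genes.

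The MM401 P2 libraries held 74952496 and 80383376 counts and the ESC libraries 22527090 and 21050377. The precursor of ribosomal RNA, Rn45s, made up 1.39% and 1.55% of the counts in MM401 P2 and 0.592% and 0.598% in ESC. Replicates differed little in both groups, but more in MM401 P2. CPM are read counts scaled to a common library size with TMM. Over 5797 genes of at least 50 CPM, the median absolute log2 difference was 0.0544 in MM401 P2 and 0.032 in ESC. The scatter between replicates relative to counting noise (chi-squared per degree of freedom) was 9.155 in MM401 P2 and 1.281 in ESC. This measure also grows with depth. Markers of feeder fibroblasts, such as collagen genes, summed to 19233 and 18705 CPM in MM401 P2 and to 5759 and 5765 CPM in ESC over 20 genes, and no marker was at 0 in either group. Over 12 macrophage and blood markers the sums were 484 and 493 CPM in MM401 P2 and 518 and 528 CPM in ESC, and over 15 endothelial markers they were 624 and 612 CPM and 391 and 394 CPM. More endothelial genes went against their sum: 8 were lower in MM401 P2 and 4 higher (edgeR adjusted p under 0.05). Their median log2 fold change was -0.48. The part of the feeder markers in the gene groups described next was not tested. Where leaving out the genes that follow these markers in the 10 libraries of the other groups moves a list's counts by over 1.5 times, the counts without them stand beside the result or in the closing section.

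Most of the transcriptome differed between MM401 P2 and ESC. Of 16247 genes tested, 12136 (74.7%) were called at an edgeR adjusted p under 0.05. In MM401 P2, 6669 genes (41.0%) rose and 5467 (33.6%) fell. These words mean higher and lower than in ESC. They do not describe a change over the treatment, since the MM401 P2 cells came from EpiSC. The differences were mostly small: 2214 genes (13.6%) rose at least 2-fold and 1660 (10.2%) fell at least 2-fold, and the median log2 fold change of all genes was 0.08. Gene lists are read against these shares. The libraries of the 2 groups overlapped in only 2186 of the 16247 genes, so groups without overlap are the common case and set no gene apart. Against day 3 of the same treatment, 11501 genes (70.8%) were called, of which 6092 (37.5% of genes tested) were higher at P2 and 5409 (33.3%) lower. In bulk RNA, fewer cells of a type and less RNA per cell cannot be told apart, and this holds for each list.

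**Figure D1:**
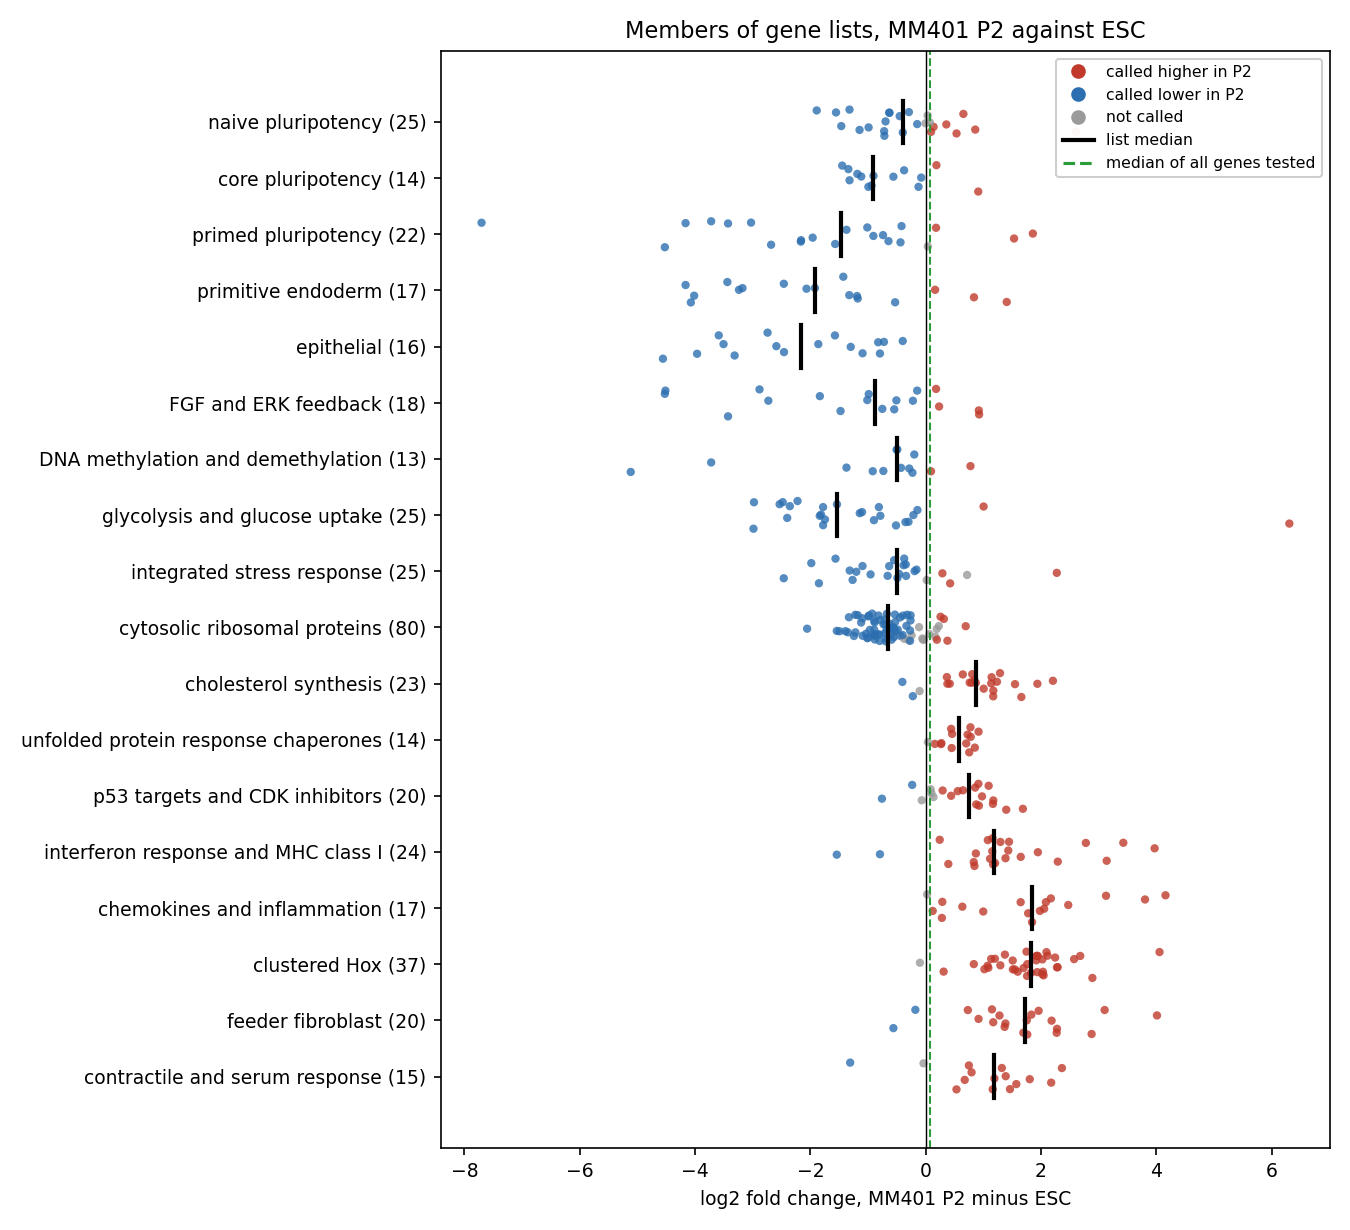
Log2 fold changes (MM401 P2 minus ESC, horizontal axis) of every tested member of 18 gene lists, with the number of members in brackets, coloured by the edgeR call. The epithelial list lies wholly to the left of 0, and the clustered Hox list lies to the right apart from 1 member that was not called.

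Transcripts of the pluripotency factors were present in MM401 P2, at unequal levels relative to ESC. Of 14 core pluripotency genes, 2 rose and 12 fell, with a median log2 fold change of -0.92. Pou5f1, which encodes Oct4, measured 597 and 615 CPM in MM401 P2 and 1518 and 1550.1 CPM in ESC, a log2 fold change of -1.34 ± 0.04 (± SE, edgeR adjusted p = 1.11e-29). Both MM401 P2 libraries were low, below ESC and also below EpiSC at 949.9 and 950.3 CPM. Nanog, a homeobox factor of the same core network, measured 754 and 761 CPM in MM401 P2 and 414 and 391 CPM in ESC, a log2 fold change of 0.91 ± 0.04 (edgeR adjusted p = 1.70e-23). Here the MM401 P2 libraries were the high ones. Sox2, the partner of Oct4 on DNA, measured 699.5 and 661 CPM against 597 and 598 CPM, a log2 fold change of 0.19 ± 0.04 (edgeR adjusted p = 9.33e-05), so that its rise was small but the groups did not overlap. Lin28a, an RNA-binding protein that blocks let-7 maturation, measured 166 and 163 CPM in MM401 P2 and 414 and 406 CPM in ESC (log2 fold change -1.32 ± 0.04, edgeR adjusted p = 8.83e-30). Further falls in this list were those of Rif1 (log2 fold change -1.45), Foxd3 (-1.19), Utf1 (-1.12) and Sall4 (-0.99). Nanog and Sox2 were thus the 2 core genes that rose, while the core list summed to 3692 and 3665 CPM in MM401 P2 and 5550.2 and 5532 CPM in ESC.

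The naive markers were below their level in ESC on balance but far above that in EpiSC. Of 25 genes, 7 rose and 15 fell, with a median log2 fold change of -0.40, and 5 of the falls were at least 2-fold. Their levels summed to 6976 and 6944 CPM in MM401 P2, 9041 and 8989 CPM in ESC and 2325 and 2312 CPM in EpiSC. Nr0b1 (Dax1), an orphan nuclear receptor that binds Oct4, measured 104 and 104 CPM in MM401 P2 and 387 and 385 CPM in ESC (log2 fold change -1.89 ± 0.04, edgeR adjusted p = 8.52e-34). Its 2 values in MM401 P2 were nearly equal and far below ESC. Tdh, the threonine dehydrogenase on which mouse ESC depend, measured 160.1 and 167 CPM against 489 and 473 CPM (log2 fold change -1.55 ± 0.04, edgeR adjusted p = 2.87e-32). Klf2 measured 178 and 187 CPM against 504 and 503 CPM (log2 fold change -1.46 ± 0.07, edgeR adjusted p = 6.84e-10). The other 2 Krüppel-like factors of the naive network behaved otherwise. Klf4 measured 200.4 and 198 CPM against 182 and 180.0 CPM, a small rise (log2 fold change 0.14 ± 0.04, edgeR adjusted p = 0.00205). Klf5 measured 249 and 219.8 CPM against 234 and 235 CPM and was not called (log2 fold change 0.00 ± 0.07, edgeR adjusted p = 0.975), with the ESC libraries inside the range of MM401 P2. Dppa5a, which encodes an RNA-binding protein of the early embryo, was not called either (log2 fold change 0.03 ± 0.04).

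Esrrb, an orphan nuclear receptor downstream of Nanog, measured 578 and 563 CPM in MM401 P2 and 941 and 939 CPM in ESC (log2 fold change -0.72 ± 0.03, edgeR adjusted p = 4.13e-22). Zfp42 (Rex1), a classical marker of undifferentiated ESC, measured 206 and 207 CPM against 271 and 272 CPM (log2 fold change -0.40 ± 0.04, edgeR adjusted p = 6.39e-12), while EpiSC stood at 20.2 and 17.9 CPM. Both genes were thus lower than in ESC and higher than in EpiSC in every library. Tbx3, a T-box factor of the LIF network, measured 184 and 166 CPM against 271 and 269 CPM (log2 fold change -0.63 ± 0.04, edgeR adjusted p = 9.13e-16), after 448 and 452 CPM on day 3. Prdm14, which represses FGF receptor genes and Dnmt3b in ESC, was among the rises, with 86.9 and 86.4 CPM against 59.8 and 59.7 CPM (log2 fold change 0.54 ± 0.05, edgeR adjusted p = 1.06e-13). Pecam1 (log2 fold change 0.86) and Fbxo15 (0.65) rose as well. Gbx2 (-1.15) and Dppa3 (-0.99), a protein that guards maternal DNA methylation in the zygote, fell. Set against day 3, P2 libraries were lower in 22 of the 25 naive genes and higher in 1, with a median log2 fold change of -0.61.

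**Figure D2:**
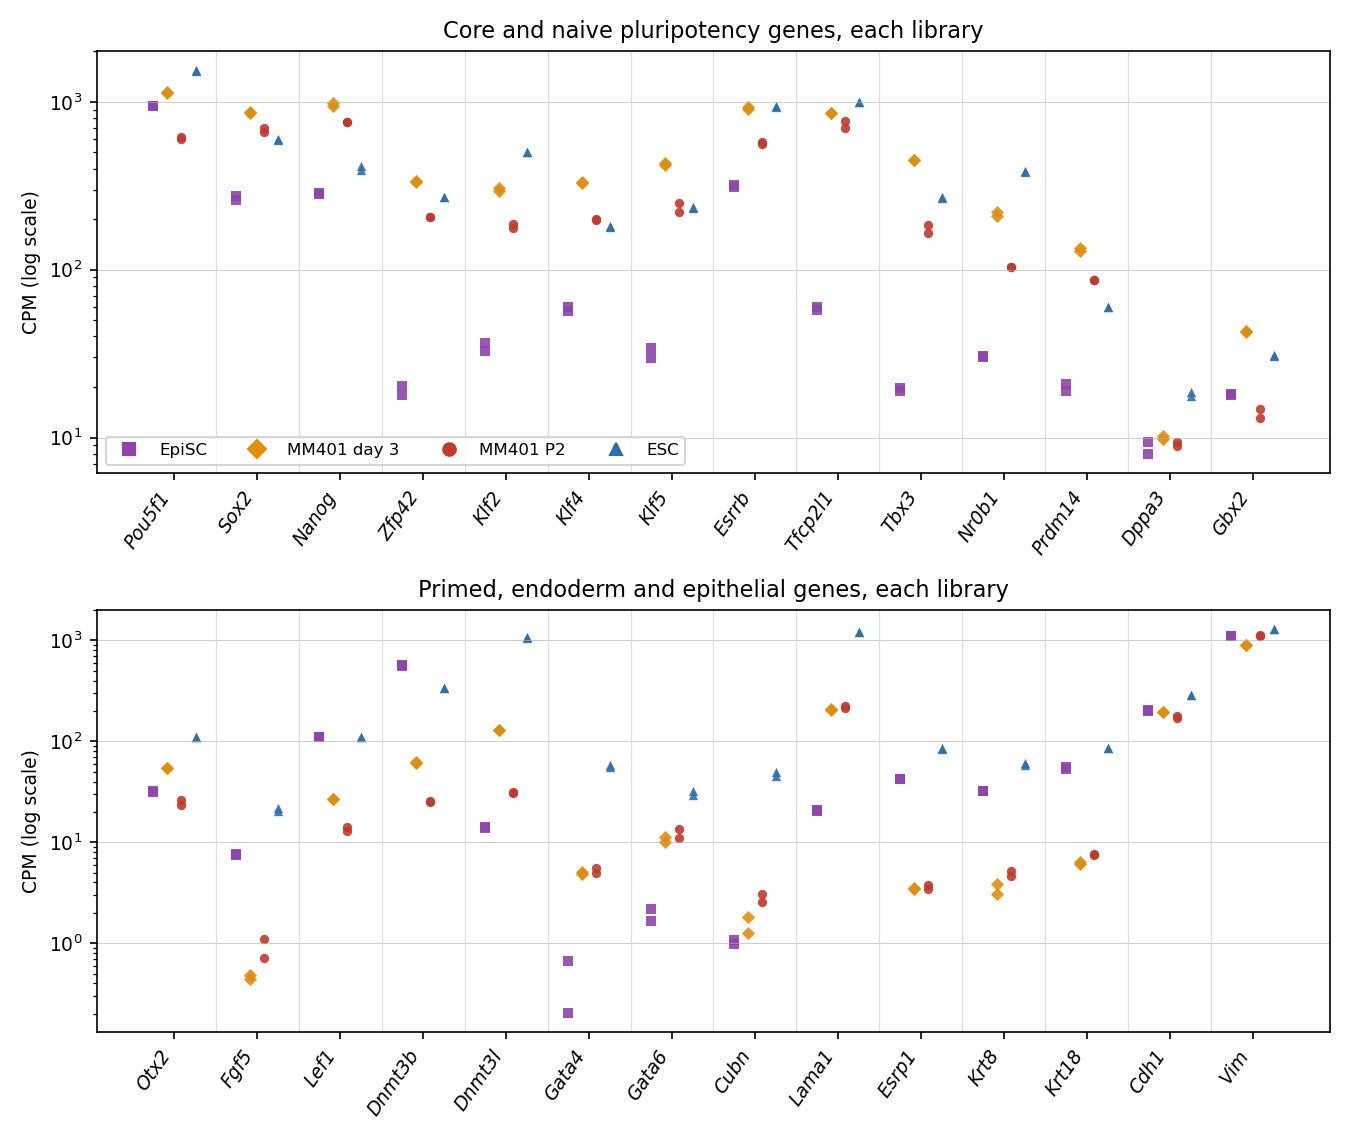
CPM on a log scale (vertical axis) of 28 genes in each library of EpiSC, MM401 day 3, MM401 P2 and ESC, with 1 point per library. For Nanog the MM401 P2 points lie above the ESC points, and for Pou5f1, Dnmt3b, Lef1 and Otx2 they lie below both ESC and EpiSC.

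Primed markers were lower in MM401 P2 than in ESC. Of 22 genes, 3 rose and 18 fell, 13 of them at least 2-fold, with a median log2 fold change of -1.47. Some members, such as Fgf5, Dnmt3b and Lef1, are counted again in lists below, so the counts of different lists are not separate results. Fgf5, an FGF ligand of the post-implantation epiblast, measured 0.719 and 1.104 CPM in MM401 P2 and 22.02 and 20.2 CPM in ESC (log2 fold change -4.52 ± 0.19, edgeR adjusted p = 2.12e-23). It stood at 7.55 and 7.68 CPM in the libraries labelled EpiSC, so the ESC libraries held the highest level of this primed marker among these 3 groups. Otx2, a homeobox factor of the transition to the primed state, measured 25.96 and 23.6 CPM against 112 and 110.0 CPM (log2 fold change -2.16 ± 0.05, edgeR adjusted p = 6.07e-32), with 31.3 and 31.9 CPM in EpiSC. Lef1, a nuclear partner of beta-catenin, measured 14.2 and 12.9 CPM against 110.3 and 111 CPM (log2 fold change -3.03 ± 0.06, edgeR adjusted p = 3.07e-33). For each of these genes both MM401 P2 libraries were below both ESC libraries. The 3 rises were those of the Wnt receptor gene Fzd2 (log2 fold change 1.53 ± 0.06), the secreted Wnt antagonist gene Sfrp2 (1.86 ± 0.08) and Etv4 (0.18 ± 0.04).

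Most genes that set or remove DNA methylation were low in MM401 P2. Of 13 genes of DNA methylation and demethylation, 2 rose and 11 fell, with a median log2 fold change of -0.49. The count of rises was 1 without MM401 P2 replicate 2 or without ESC replicate 2. Dnmt3l, a catalytically inactive cofactor of the de novo methyltransferases, measured 30.5 and 31.3 CPM in MM401 P2 and 1069 and 1075 CPM in ESC (log2 fold change -5.12 ± 0.04, edgeR adjusted p = 1.19e-47). EpiSC stood at 13.7 and 14.2 CPM and day 3 at 129 and 130.0 CPM, so P2 was lower than day 3 and ESC and higher than EpiSC. Dnmt3b, a de novo methyltransferase, measured 25.7 and 25.1 CPM against 336 and 334 CPM (log2 fold change -3.72 ± 0.04, edgeR adjusted p = 1.06e-41), and EpiSC stood at 561 and 573 CPM. Here both MM401 P2 libraries were below all libraries of ESC and EpiSC. Dnmt3a, the other de novo enzyme, fell less (log2 fold change -1.37 ± 0.05), as did Uhrf1, which guides the maintenance enzyme to replicated DNA (-0.73 ± 0.03). Trim28, the corepressor that protects methylation at imprinted regions, fell too (-0.92 ± 0.03). The falls were not limited to methylation, since Tet3, an enzyme of demethylation, was among them.

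Readouts of the pathways that hold pluripotent cells in either state did not move as a block. LIF signals through Lifr, gp130 (Il6st), Jak1 and Stat3, and of 16 genes of this pathway 8 rose and 6 fell (median log2 fold change 0.09). Without the 3 members that follow the feeder markers, 6 rose and 6 fell, and the median log2 fold change was -0.09. The Stat3 target Pim1, a kinase gene, measured 290.2 and 293 CPM in MM401 P2 and 135 and 141 CPM in ESC (log2 fold change 1.08 ± 0.04, edgeR adjusted p = 1.06e-24). Socs3, the feedback inhibitor of the pathway, measured 174 and 174 CPM against 167 and 163 CPM and was not called (log2 fold change 0.08 ± 0.04, edgeR adjusted p = 0.0966), while Socs2 fell (log2 fold change -1.42 ± 0.06). Osmr, the oncostatin M receptor that shares gp130, rose (1.26 ± 0.05), and so did Bcl3 (1.29 ± 0.05).

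Genes that report FGF and ERK signalling fell. Of 18 genes, 4 rose and 14 fell, 8 of them at least 2-fold, and the median log2 fold change was -0.87. Spry4, a feedback inhibitor induced by ERK, measured 24.4 and 24.04 CPM in MM401 P2 and 176 and 181 CPM in ESC (log2 fold change -2.88 ± 0.05, edgeR adjusted p = 5.67e-36). Both MM401 P2 libraries were low and close to each other. The ERK phosphatase genes Dusp4 (log2 fold change -2.73 ± 0.06) and Dusp6 (-1.83 ± 0.05) fell, as did Spry2 (-1.48 ± 0.04) and the ligand gene Fgf15 (-4.51 ± 0.12). The receptor gene Fgfr1 rose (0.92 ± 0.04), and so did Egr1, an immediate early gene (0.93 ± 0.05). Over 16 AP-1 and immediate early genes, 6 rose and 8 fell (median -0.55). Without the members that follow the feeder markers, 3 of 11 AP-1 and immediate early genes rose and 7 fell (median -0.78), and 2 of 16 FGF and ERK genes rose and 14 fell. Against day 3, 11 genes of the FGF list were lower at P2 and 6 higher.

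Wnt, BMP and Nodal genes moved in both directions. Of 25 Wnt genes, 8 rose and 12 fell. Axin2, a general target of beta-catenin that limits Wnt signalling, measured 4.72 and 4.54 CPM in MM401 P2 and 33.7 and 34.5 CPM in ESC (log2 fold change -2.88 ± 0.10, edgeR adjusted p = 7.64e-26). Porcn, which acylates Wnt ligands, fell (log2 fold change -3.01 ± 0.06), as did Notum, which removes that acyl group (-2.43 ± 0.08), and the receptor gene Fzd7 (-1.78 ± 0.05). Sfrp1, a secreted Wnt antagonist, rose (1.61 ± 0.04). Of 17 BMP genes, 8 rose and 9 fell. The ligand gene Bmp4 measured 7.56 and 6.87 CPM against 61.4 and 57.1 CPM (log2 fold change -3.04 ± 0.08, edgeR adjusted p = 2.43e-29). Its targets Id1 (log2 fold change -1.62 ± 0.08) and Id3 (-2.004 ± 0.06) fell, while the inhibitory Smad gene Smad6 (1.91 ± 0.11) and the receptor gene Bmpr2 (1.22 ± 0.06) rose. Of 15 Nodal and activin genes, 4 rose and 11 fell, among them the antagonist genes Lefty1 (-0.96 ± 0.04) and Fst (-2.90 ± 0.06). Inhba, the activin A subunit gene, rose (1.76 ± 0.07). Myc, a target shared by LIF and Wnt signalling in ESC, measured 21.7 and 22.7 CPM against 83.8 and 86.7 CPM (log2 fold change -1.94 ± 0.06, edgeR adjusted p = 1.82e-28), and both MM401 P2 libraries were low.

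Markers of primitive endoderm, the extraembryonic layer that lines the blastocyst cavity, were low in MM401 P2. Of 17 genes, 3 rose and 14 fell, 13 of them at least 2-fold, with a median log2 fold change of -1.92. Gata4, a transcription factor that specifies this layer, measured 4.99 and 5.58 CPM in MM401 P2 and 56.1 and 58.8 CPM in ESC (log2 fold change -3.44 ± 0.11, edgeR adjusted p = 4.77e-27). Lama1, a laminin chain of its basement membrane, measured 226 and 213 CPM against 1205 and 1207 CPM (log2 fold change -2.46 ± 0.04, edgeR adjusted p = 2.91e-38). In both cases ESC was the high group, and EpiSC stood at 0.204 and 0.6605 CPM for Gata4. Sox17 (log2 fold change -3.18 ± 0.16), Hnf4a (-3.24 ± 0.15) and Sox7 (-1.92 ± 0.10) fell, as did Cubn (-4.07 ± 0.14) and Amn (-4.02 ± 0.22), the subunits of an endocytic receptor of visceral endoderm. Gata6 fell less (-1.32 ± 0.09). Pdgfra (log2 fold change 1.41 ± 0.05) and Sparc (0.84 ± 0.03), which fibroblasts also express, rose. Without the 4 members that follow the feeder markers, 13 of the 13 left fell and 0 rose. Against day 3, P2 was higher in 10 of the 17 genes and lower in 1 (median 0.67), and the median against ESC was -2.10 on day 3.

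The epithelial list fell as a whole. All 16 tested members fell, 12 of them at least 2-fold, with a median log2 fold change of -2.16, and the list summed to 436 and 430.2 CPM in MM401 P2 and 1226 and 1228 CPM in ESC. Esrp1, an epithelial splicing regulator, measured 3.42 and 3.801 CPM in MM401 P2 and 84.4 and 85.9 CPM in ESC (log2 fold change -4.56 ± 0.10, edgeR adjusted p = 2.29e-33). Krt18, a keratin of simple epithelia, measured 7.503 and 7.602 CPM against 86.4 and 85.2 CPM (log2 fold change -3.51 ± 0.07, edgeR adjusted p = 3.49e-33), and its partner Krt8 fell alike (log2 fold change -3.59 ± 0.10). Grhl2, a transcription factor that maintains epithelia, measured 15.3 and 14.8 CPM against 147 and 151 CPM (log2 fold change -3.31 ± 0.06, edgeR adjusted p = 1.59e-34). In each of these genes both MM401 P2 libraries were below both ESC libraries. Cdh1, the E-cadherin gene, stood at a much larger share of its ESC level, with 178 and 170.4 CPM against 290.3 and 285 CPM (log2 fold change -0.72 ± 0.04, edgeR adjusted p = 7.05e-21). The claudin genes Cldn6 (log2 fold change -2.46 ± 0.08) and Cldn7 (-2.59 ± 0.15) lay between these extremes. The lower level than in ESC was already there on day 3, where the list's median against ESC was -2.47. Of the members, 4 were higher and 6 lower at P2 than on day 3. Over all 16 keratin genes tested, 4 rose and 6 fell.

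Mesenchymal genes did not mirror this fall in every case. Of 14 regulators and markers, 10 rose and 2 fell (median log2 fold change 0.90), and 7 of 10 rose without the members that follow the feeder markers. Mmp2, a gelatinase, measured 670.4 and 674 CPM in MM401 P2 and 92.9 and 101 CPM in ESC (log2 fold change 2.80 ± 0.04, edgeR adjusted p = 8.42e-39). Zeb1, a repressor of Cdh1, rose (log2 fold change 0.96 ± 0.06), as did Twist1 (1.23 ± 0.09). Vim, the vimentin gene, measured 1132 and 1114 CPM against 1305 and 1305 CPM and fell slightly (log2 fold change -0.22 ± 0.03, edgeR adjusted p = 7.15e-08). Fn1 fell (-0.96 ± 0.03), and Snai1 was not called (0.01 ± 0.07).

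Fibroblast markers were present in all groups and mostly higher in MM401 P2 than in ESC. Of 20 feeder fibroblast markers, 18 rose, 16 of them at least 2-fold, and 2 fell (median log2 fold change 1.72). Postn, a matrix protein of fibroblasts, measured 1362 and 1493 CPM in MM401 P2 and 87.5 and 89.5 CPM in ESC (log2 fold change 4.01 ± 0.04, edgeR adjusted p = 2.30e-43). It was already at 526 and 537 CPM in EpiSC and at 412 and 421 CPM on day 3. Col1a1, a chain of fibrillar collagen I, measured 3082 and 3038 CPM against 784 and 789.9 CPM (log2 fold change 1.96 ± 0.05, edgeR adjusted p = 8.82e-24). Dcn (log2 fold change 3.10 ± 0.04) and Lum (2.88 ± 0.05), small proteoglycans of connective tissue, rose with it. The fibroblast surface marker Thy1 fell (-0.56 ± 0.05), as did Col6a3 (-0.18 ± 0.04). All 20 markers were higher at P2 than on day 3, and the labels name feeder cells for ESC alone among the groups compared. The list summed to 19233 and 18705 CPM in MM401 P2, 5759 and 5765 CPM in ESC, 5312 and 5381 CPM in EpiSC and 3287 and 3249 CPM in rES passage 6.

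Among 15 contractile and serum response genes, 13 rose and 1 fell, and 5 of the 7 that do not follow the feeder markers rose. Acta2, smooth muscle actin, measured 1079.9 and 1086 CPM in MM401 P2 and 213 and 208 CPM in ESC (log2 fold change 2.36 ± 0.04, edgeR adjusted p = 6.80e-38). Thbs1, thrombospondin 1, measured 6999 and 6181 CPM against 2213 and 2219 CPM (log2 fold change 1.57 ± 0.04, edgeR adjusted p = 7.17e-31). Ankrd1, a target of YAP, fell against the list (log2 fold change -1.31 ± 0.07). Of 40 collagen chain genes, 25 rose and 10 fell (median 0.98). Without the 19 that follow the feeder markers, 7 rose and 9 fell, with a median log2 fold change of -0.24, so the sign of this list's median changes. The basement membrane chains Col4a1 (log2 fold change -1.43 ± 0.04) and Col4a2 (-1.19 ± 0.04) fell.

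**Figure D3:**
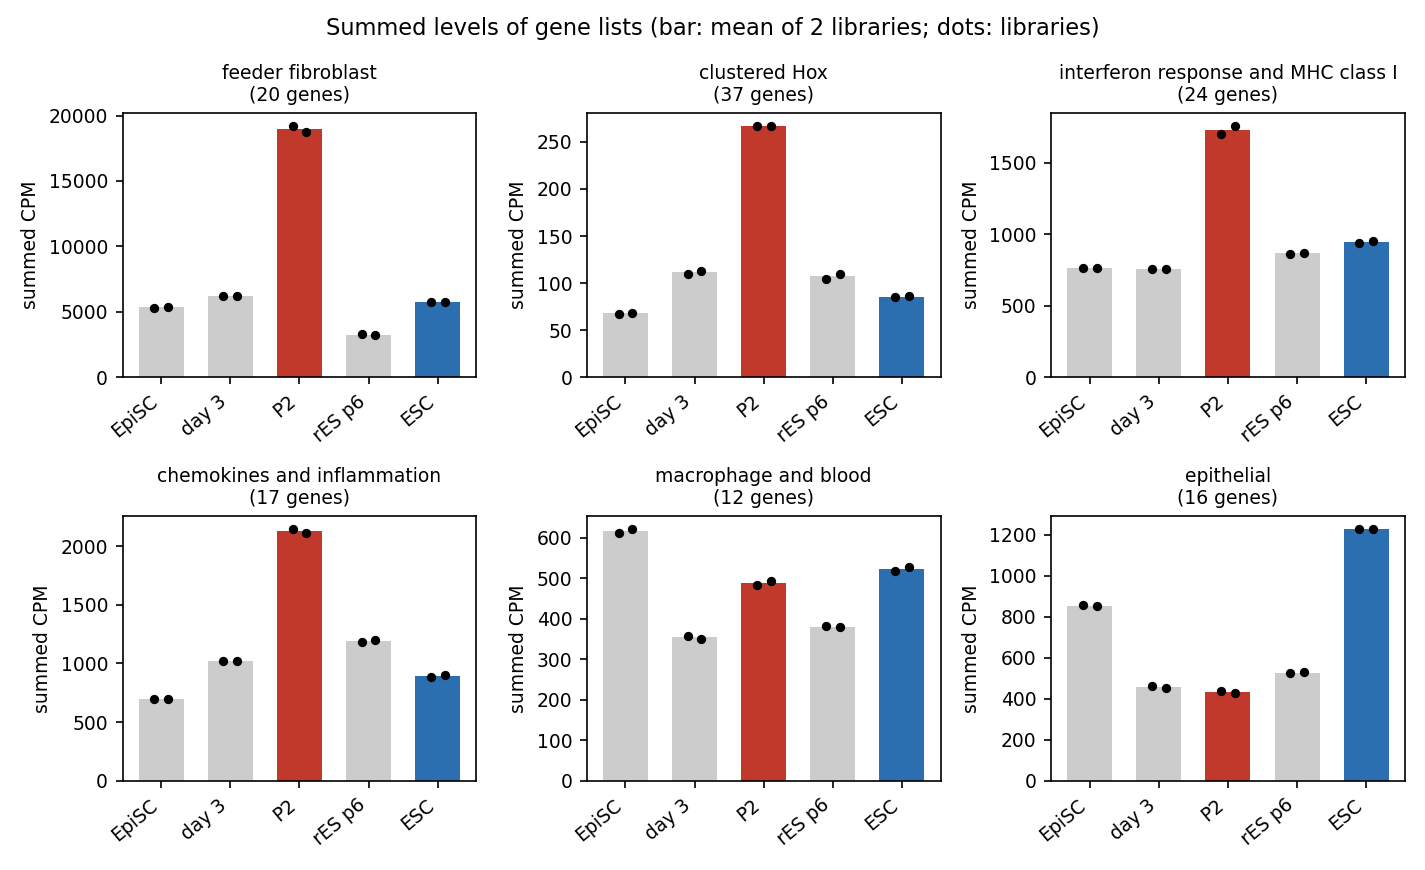
Summed CPM (vertical axis, from 0) of 6 gene lists in EpiSC, MM401 day 3, MM401 P2, rES passage 6 and ESC, with bars for the mean of 2 libraries and dots for the libraries. The feeder fibroblast, Hox, interferon and chemokine sums are highest in MM401 P2, whereas that of macrophage and blood markers is lower in MM401 P2 than in ESC and higher than on day 3.

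Genes of the interferon response and of antigen presentation rose at P2. Of 24 genes, 22 rose, 17 of them at least 2-fold, and 2 fell, with a median log2 fold change of 1.19. On day 3 the median against ESC was 0.01, and 23 members were higher and 0 lower at P2 than on day 3. Without the members that follow the feeder markers, 18 of 20 rose and 2 fell. Interferon signals through a complex that holds Stat2 and Irf9 and binds the interferon-stimulated response element. Among called members whose promoter holds such letters, the 3 with the largest absolute change (minimum 10 CPM in either group) are shown. Of these 3, 2 rose and 1 fell. The lines give 250 bases before to 50 bases after the start of the gene from RefSeq (build GRCm38.p6), with matches to GAAANNGAA on either strand in capitals, which all read here as the reverse complement. Ifit1 lies at chr19:34640639-34640938 on the plus strand, Stat2 at chr10:128270248-128270547 on the plus strand, and Ddx58 at chr4:40239776-40240075 on the minus strand.
Ifit1: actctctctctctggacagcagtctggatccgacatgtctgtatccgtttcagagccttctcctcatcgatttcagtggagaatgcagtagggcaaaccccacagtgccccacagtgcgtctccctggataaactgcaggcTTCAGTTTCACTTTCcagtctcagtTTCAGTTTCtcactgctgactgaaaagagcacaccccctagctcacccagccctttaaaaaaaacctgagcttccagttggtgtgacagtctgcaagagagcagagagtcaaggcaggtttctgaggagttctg
Stat2: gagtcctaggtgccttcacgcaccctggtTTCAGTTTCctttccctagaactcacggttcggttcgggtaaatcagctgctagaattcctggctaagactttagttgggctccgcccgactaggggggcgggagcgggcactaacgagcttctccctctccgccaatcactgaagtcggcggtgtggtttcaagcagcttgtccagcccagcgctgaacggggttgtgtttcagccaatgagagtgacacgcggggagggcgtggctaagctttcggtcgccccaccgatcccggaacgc
Ddx58: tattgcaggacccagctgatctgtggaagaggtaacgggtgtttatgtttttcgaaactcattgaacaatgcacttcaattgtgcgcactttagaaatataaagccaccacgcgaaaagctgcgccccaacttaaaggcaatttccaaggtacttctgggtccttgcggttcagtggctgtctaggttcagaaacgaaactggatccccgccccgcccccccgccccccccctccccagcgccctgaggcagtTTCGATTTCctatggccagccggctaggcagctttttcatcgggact

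This motif, searched on both strands with N for any base, was in a promoter of 12 of the 22 interferon list genes with an entry (54.5%), against 2638 of 27025 genes in the table (9.76%) and 8.56% of its 32851 promoters. Of the 12, 11 rose and 1 fell. A match is a description of these letters and not a binding site. Ifit1, an interferon-induced protein that binds viral RNA whose promoter holds 3 matches, of which 2 overlap, measured 11.6 and 10.3 CPM in MM401 P2 and 1.27 and 1.21 CPM in ESC (log2 fold change 3.14 ± 0.20, edgeR adjusted p = 2.15e-17). Stat2 itself measured 73.3 and 74.3 CPM against 24.3 and 22.8 CPM (log2 fold change 1.65 ± 0.06, edgeR adjusted p = 1.11e-24). Ddx58, the RNA sensor RIG-I, went the other way, with 48.7 and 44.8 CPM against 132 and 140.4 CPM (log2 fold change -1.54 ± 0.06, edgeR adjusted p = 1.90e-25). The groups did not overlap in any of the 3 genes, as in most genes tested. Irf7, the factor that amplifies type I interferon, measured 31.2 and 31.2 CPM against 1.94 and 2.03 CPM (log2 fold change 3.97 ± 0.14, edgeR adjusted p = 3.37e-26), after 4.03 and 3.62 CPM on day 3. H2-D1, a classical MHC class I heavy chain, measured 139 and 149 CPM against 38.8 and 36.1 CPM (log2 fold change 1.95 ± 0.05, edgeR adjusted p = 1.86e-29). Tap1 (log2 fold change 1.43 ± 0.09) and Psmb8 (1.45 ± 0.12), which supply peptides to class I, rose with it. Irf1, a factor induced by interferon gamma, fell (-0.79 ± 0.06).

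Most chemokine and acute-phase genes rose as well. Of 17 genes, 16 rose, 11 of them at least 2-fold, and 0 fell (median log2 fold change 1.84). Without the 10 members that follow the feeder markers, 6 of 7 rose and the median log2 fold change was 0.66. Saa3, a serum amyloid A protein, measured 114 and 125 CPM in MM401 P2 and 6.103 and 7.25 CPM in ESC (log2 fold change 4.16 ± 0.08, edgeR adjusted p = 2.62e-34). Il6, the cytokine that also signals through gp130, measured 13.6 and 12.6 CPM against 0.723 and 1.16 CPM (log2 fold change 3.80 ± 0.19, edgeR adjusted p = 1.92e-20). In both, the MM401 P2 libraries were the high ones by a wide margin. Cxcl5 (log2 fold change 3.13 ± 0.07) and Cxcl1 (2.47 ± 0.10), chemokines of neutrophils, rose, as did the adhesion molecule gene Vcam1 (1.98 ± 0.06). Cxcl10, a chemokine induced by interferon, was not called (log2 fold change 0.02 ± 0.30, edgeR adjusted p = 0.946). Of 12 macrophage and blood markers, 2 rose and 8 fell against ESC, while 11 were higher and 1 lower at P2 than on day 3 (median log2 fold change 0.75). Of these markers, 8 follow the feeder markers, and of the 4 others 2 rose and 1 fell against ESC (median 0.27).

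Targets of the integrated stress response, in which phosphorylated eIF2alpha favours translation of Atf4, fell. Of 25 genes, 3 rose and 20 fell, with a median log2 fold change of -0.49. Atf4 with C/EBP proteins binds a composite element. Among called members whose promoter holds letters of it, the 3 with the largest absolute change (minimum 10 CPM in either group), all falls, were chosen by the same rule. Their promoters are shown. They come from the same RefSeq table and build, with matches to TGATGNAA on either strand in capitals. Chac1 lies at chr2:119350992-119351291 on the plus strand, Herpud1 at chr8:94386179-94386478 on the plus strand, and Atf3 at chr1:191183284-191183583 on the minus strand.
Chac1: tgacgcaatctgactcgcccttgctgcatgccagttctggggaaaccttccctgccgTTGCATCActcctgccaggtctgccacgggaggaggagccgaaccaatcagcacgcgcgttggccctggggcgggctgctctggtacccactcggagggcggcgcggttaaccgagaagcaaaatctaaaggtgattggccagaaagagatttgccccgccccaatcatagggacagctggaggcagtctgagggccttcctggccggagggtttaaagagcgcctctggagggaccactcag
Herpud1: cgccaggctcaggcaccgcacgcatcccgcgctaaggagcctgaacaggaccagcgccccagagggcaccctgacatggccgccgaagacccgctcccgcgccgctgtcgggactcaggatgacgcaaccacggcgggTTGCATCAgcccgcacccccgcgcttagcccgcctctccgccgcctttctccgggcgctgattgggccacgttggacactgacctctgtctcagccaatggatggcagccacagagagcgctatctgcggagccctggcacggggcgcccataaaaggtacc
Atf3: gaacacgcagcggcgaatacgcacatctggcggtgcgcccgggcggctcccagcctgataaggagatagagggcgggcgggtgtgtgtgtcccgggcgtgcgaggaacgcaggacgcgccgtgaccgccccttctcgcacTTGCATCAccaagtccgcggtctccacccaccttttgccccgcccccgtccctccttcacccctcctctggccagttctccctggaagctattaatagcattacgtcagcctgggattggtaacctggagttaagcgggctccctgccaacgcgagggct

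The motif was in a promoter of 10 of the 22 list genes with an entry (45.5%), against 1219 of 27025 genes (4.51%) and 3.97% of promoters. Of the 10, 7 fell, 2 rose and 1 was not called. Chac1, which degrades glutathione, measured 24.7 and 22.4 CPM in MM401 P2 and 132 and 127 CPM in ESC (log2 fold change -2.46 ± 0.06, edgeR adjusted p = 5.87e-32). Herpud1, a component of endoplasmic reticulum-associated degradation, measured 35.7 and 38.9 CPM against 110.4 and 110.2 CPM (log2 fold change -1.56 ± 0.05, edgeR adjusted p = 7.37e-26). Atf3, a stress-induced repressor, measured 11.004 and 11.5 CPM against 30.2 and 25.9 CPM (log2 fold change -1.32 ± 0.08, edgeR adjusted p = 2.30e-17). All 3 were low in both MM401 P2 libraries. Slc7a3, a cationic amino acid transporter, measured 99.03 and 96.5 CPM against 389 and 384 CPM (log2 fold change -1.98 ± 0.04, edgeR adjusted p = 1.13e-34). Sesn2 (log2 fold change -1.85 ± 0.05) and Trib3 (-1.20 ± 0.05) fell as well. Cebpb, a C/EBP factor that also acts in inflammation, rose strongly, with 181 and 193 CPM against 37.3 and 39.97 CPM (log2 fold change 2.27 ± 0.09, edgeR adjusted p = 4.04e-14).

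Chaperones of the unfolded protein response moved the other way. Of 14 genes, 13 rose and 0 fell, none by 2-fold or more, with a median log2 fold change of 0.58. Hsp90b1, the chaperone Grp94, measured 1099 and 1155 CPM in MM401 P2 and 662 and 673 CPM in ESC (log2 fold change 0.76 ± 0.03, edgeR adjusted p = 6.56e-22). Sdf2l1 (0.92 ± 0.06) and the disulphide isomerase gene Pdia3 (0.85 ± 0.03) rose alike. Dnajb9, a target of Xbp1, was not called (0.04 ± 0.08). Of 12 Nrf2 targets, 8 rose and 2 fell, none by 2-fold (median 0.23).

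Glycolytic genes were low in MM401 P2. Of 25 genes of glycolysis and glucose uptake, 2 rose and 23 fell, 15 of them at least 2-fold, with a median log2 fold change of -1.54. The list summed to 5391 and 5358 CPM in MM401 P2, 13734 and 13682 CPM in ESC, 7033 and 7124 CPM in EpiSC and 14961 and 14918 CPM in rES passage 6. Ldha, which turns pyruvate into lactate, measured 204 and 203 CPM in MM401 P2 and 1048 and 1036 CPM in ESC (log2 fold change -2.36 ± 0.03, edgeR adjusted p = 3.19e-39). Pfkl, a phosphofructokinase subunit, measured 162 and 164 CPM against 949 and 938 CPM (log2 fold change -2.53 ± 0.04, edgeR adjusted p = 2.91e-38). The lactate exporter gene Slc16a3 measured 35.3 and 37.8 CPM against 296 and 283 CPM (log2 fold change -2.99 ± 0.04, edgeR adjusted p = 9.98e-39). Each of the 3 was low in both MM401 P2 libraries. Pdk1 (log2 fold change -2.40 ± 0.04), Car9 (-2.98 ± 0.14) and Bnip3 (-2.22 ± 0.07), known targets of hypoxia-inducible factors, fell as well. The 2 rises were those of Hk1, a hexokinase gene, with 252 and 249.6 CPM against 129 and 121 CPM (log2 fold change 1.00 ± 0.04), and of Txnip. Txnip, an inhibitor of glucose uptake and thioredoxin, measured 555 and 527 CPM against 6.6002 and 7.06 CPM (log2 fold change 6.31 ± 0.06, edgeR adjusted p = 2.91e-45). It was high in EpiSC (330.0 and 324 CPM) and on day 3 (212 and 212 CPM) too. In rES passage 6 it was much lower (17.4 and 17.9 CPM), though still above ESC.

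Genes of cholesterol synthesis, driven by SREBP2, rose. Of 23 genes, 20 rose and 2 fell, with a median log2 fold change of 0.87. Dhcr7, the last enzyme of the Kandutsch-Russell pathway, measured 131 and 134 CPM in MM401 P2 and 28.8 and 28.6 CPM in ESC (log2 fold change 2.21 ± 0.05, edgeR adjusted p = 1.97e-32). Sc5d, a sterol desaturase gene, measured 66.6 and 68.4 CPM against 17.4 and 17.8 CPM (log2 fold change 1.94 ± 0.07, edgeR adjusted p = 1.13e-25). The groups did not overlap in either gene, as in most genes tested. Insig1, which retains SREBP in the endoplasmic reticulum when sterols are ample, rose (log2 fold change 1.24 ± 0.05), while Lss (-0.22 ± 0.05) and Ebp (-0.40 ± 0.05) fell. The sum over the list was 2839 and 2786 CPM in MM401 P2 and 1656 and 1659 CPM in ESC, and it was 2867 and 2844 CPM in EpiSC. A sterol response motif, TCACNCCAC on either strand, was in the promoter of 0 of the 15 list genes with an entry, against 1.44% of genes in the table.

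Threonine, glycine and folate genes fell with Tdh. Of 18 tested, 4 rose and 12 fell. Gldc, the glycine decarboxylase gene, fell (log2 fold change -1.79 ± 0.04), as did Gcat (-1.38 ± 0.04), which acts after Tdh, and Shmt2 (-1.27 ± 0.03), the mitochondrial serine hydroxymethyltransferase. Transcripts of cytosolic ribosomal proteins were lower: of 80 genes, 5 rose and 63 fell, with a median log2 fold change of -0.65, and 2 rose without ESC replicate 1. Rpl29 fell the most among those named (log2 fold change -2.06 ± 0.08). Ribosomal protein genes have many processed pseudogenes, and the rule used for reads with several matches is not given by the labels. Nuclear genes of the respiratory chain moved little, with 20 rises and 27 falls among 72, 0 by 2-fold or more.

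**Figure D4:**
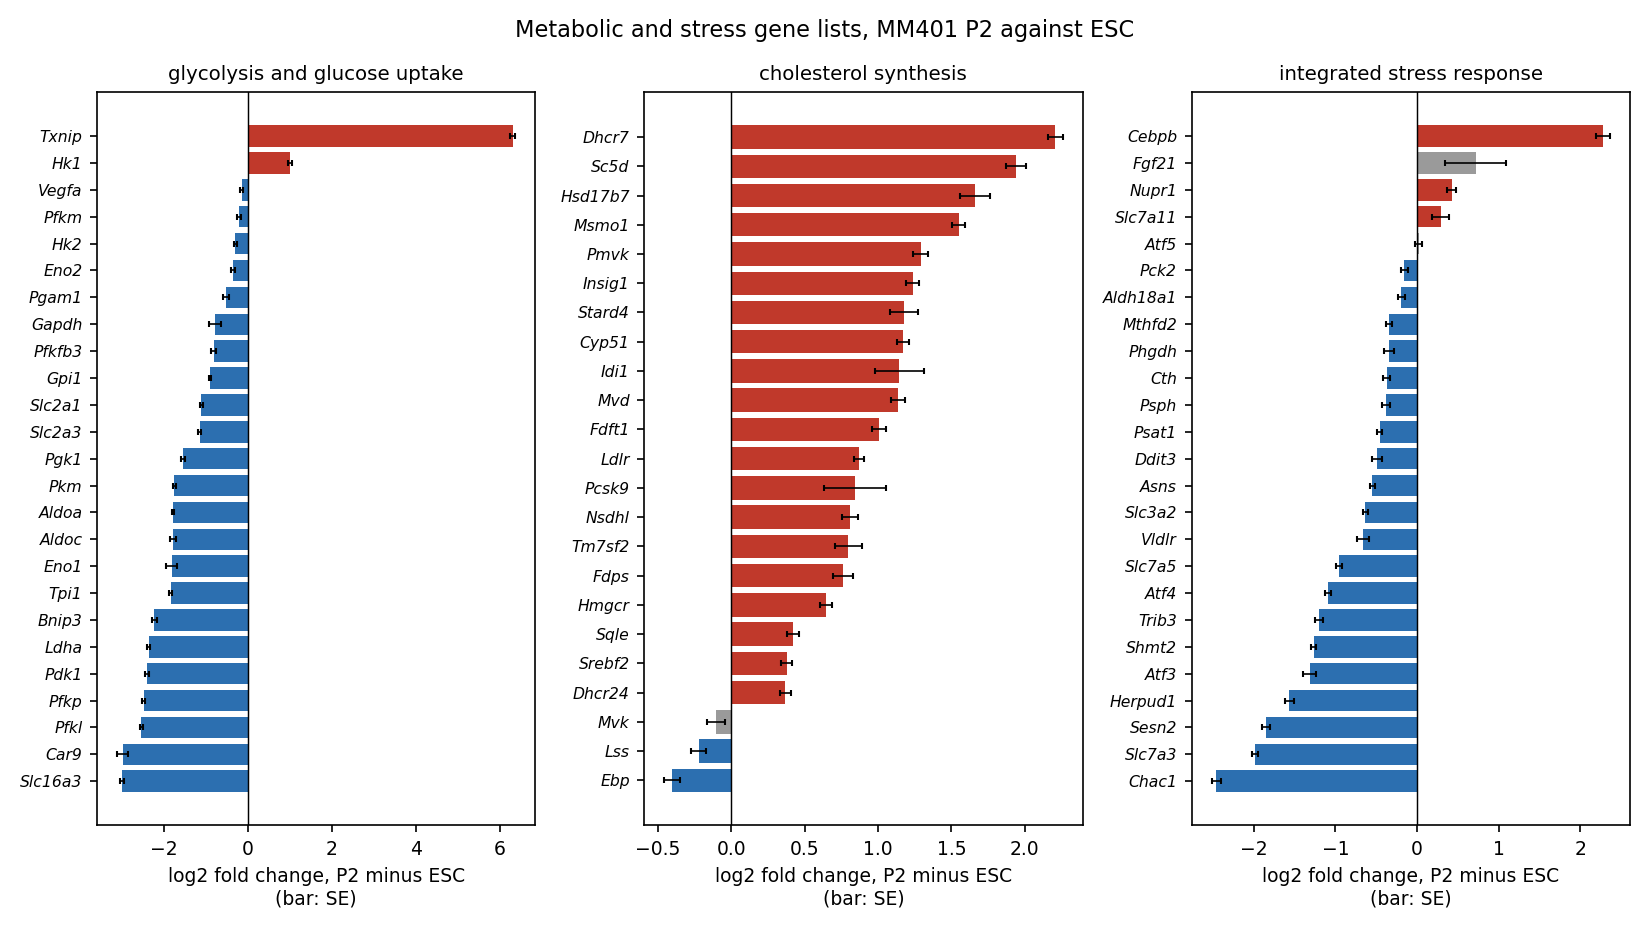
Log2 fold changes (MM401 P2 minus ESC, horizontal axis, different scale in each panel) of each tested gene of glycolysis, cholesterol synthesis and the integrated stress response, with bars for the fitted value and error bars for the SE. Red bars were called higher, blue bars called lower and grey bars not called. Glycolysis holds 2 red bars, for Txnip and Hk1, and cholesterol synthesis 2 blue bars, for Lss and Ebp.

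Cell cycle genes changed by small amounts. Of 26 DNA replication genes, 4 rose and 17 fell (median log2 fold change -0.18), and of 25 mitotic genes, 17 rose and 5 fell (median 0.30). Only 1 mitotic gene fell when MM401 P2 replicate 1 or ESC replicate 1 was left out. Mcm5, a subunit of the replicative helicase, fell (log2 fold change -0.74 ± 0.03). Rrm2, the ribonucleotide reductase subunit, went against the list, with 375 and 361 CPM in MM401 P2 and 145 and 143 CPM in ESC (log2 fold change 1.35 ± 0.04, edgeR adjusted p = 9.50e-30). The mitotic kinase gene Aurkb rose (0.89 ± 0.04). Against day 3, all 26 replication genes and all 25 mitotic genes were lower at P2, with medians of -0.59 and -0.48. The mitotic list summed to 4364 and 4406 CPM in MM401 P2, 6143 and 6138 CPM on day 3 and 3749 and 3705 CPM in ESC.

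p53 targets and inhibitors of cyclin-dependent kinases rose. Of 20 genes, 14 rose and 2 fell (median log2 fold change 0.75). Without the 7 members that follow the feeder markers, 8 of 13 rose, and the median log2 fold change was 0.32. Cdkn1a (p21), the classical p53 target that halts the cell cycle, measured 496 and 501 CPM in MM401 P2 and 272 and 271 CPM in ESC (log2 fold change 0.88 ± 0.03, edgeR adjusted p = 3.10e-24). Perp (log2 fold change 1.69 ± 0.07), Btg2 (1.40 ± 0.05) and Ccng1 (1.09 ± 0.04) rose too. Bax, which permeabilises mitochondria, fell (-0.76 ± 0.05), as did Cdkn2a (-0.23 ± 0.07), a locus of 2 overlapping inhibitors that a gene count does not separate.

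Genes of the complexes around the target of MM401 mostly fell. Kmt2a, the gene of Mll1, measured 128 and 117 CPM in MM401 P2 and 162 and 162 CPM in ESC (log2 fold change -0.41 ± 0.05, edgeR adjusted p = 2.02e-10), a small fall without overlap. Its RNA does not report the activity of the enzyme, so it is no check of the treatment. Wdr5, the subunit at the interface that MM401 was designed to block, measured 369 and 364 CPM against 358 and 358 CPM and was not called (log2 fold change 0.03 ± 0.03, edgeR adjusted p = 0.361). Over 18 genes of the MLL and SET1 complexes, 2 rose and 13 fell (median log2 fold change -0.42). The count of rises was 1 without MM401 P2 replicate 1. Setd1b, a related methyltransferase, measured 41.6 and 39.6 CPM against 179.6 and 180.5 CPM (log2 fold change -2.15 ± 0.05, edgeR adjusted p = 8.52e-33). The subunit genes Men1 (-0.07 ± 0.05) and Dpy30 (-0.03 ± 0.05) were not called.

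Clustered Hox genes were higher in MM401 P2. Of 37 tested, out of 39 in the table, 36 rose, 34 of them at least 2-fold, and 0 fell, with a median log2 fold change of 1.83. Levels stayed low: all 37 genes together summed to 266 and 267 CPM in MM401 P2, 84.99 and 86.1 CPM in ESC, 67.2 and 68.7 CPM in EpiSC and 110.0 and 113 CPM on day 3. Hoxb4 measured 18.4 and 18.1 CPM in MM401 P2 and 2.58 and 2.32 CPM in ESC (log2 fold change 2.89 ± 0.14, edgeR adjusted p = 1.98e-21). Hoxa9, the best known target of MLL fusion proteins in leukaemia, measured 10.1 and 8.27 CPM against 2.94 and 1.79 CPM (log2 fold change 1.94 ± 0.22, edgeR adjusted p = 3.80e-10), and 1.15 and 1.85 CPM on day 3. Hoxc6 (log2 fold change 2.58 ± 0.12) and Hoxd8 (2.28 ± 0.12) rose, so all 4 clusters held rises. Hoxc12 was the member not called, with 2.88 and 2.195 CPM against 2.53 and 2.8996 CPM (log2 fold change -0.10 ± 0.22, edgeR adjusted p = 0.694). Meis1, a partner of Hox proteins, rose as well (1.30 ± 0.12). Like the feeder markers, most Hox genes were also higher at P2 than on day 3 (30 higher, 1 lower). In rES passage 6 the 2 lists parted, with medians against ESC of 0.49 for Hox genes and -0.66 for feeder markers. Without the 9 Hox genes that follow the feeder markers in the other libraries, 27 of 28 rose in MM401 P2 and 0 fell (median 1.90). The part of the feeder markers in this rise was not tested.

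Of 21 Polycomb genes, 9 rose and 6 fell. Phf19, a Polycomb-like protein, rose (log2 fold change 1.90 ± 0.06). Kdm2b, which brings Polycomb to CpG islands, fell (-2.17 ± 0.04), as did Jarid2 (-1.23 ± 0.03) and Cbx7 (-0.83 ± 0.04). Suz12, a core subunit of Polycomb repressive complex 2, was not called (0.04 ± 0.04).

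Imprinted genes split evenly, with 12 rises and 12 falls among 29, but single genes differed widely. Igf2, a paternally expressed growth factor, measured 1017 and 998 CPM in MM401 P2 and 131 and 130.4 CPM in ESC (log2 fold change 2.95 ± 0.04, edgeR adjusted p = 1.91e-40). H19, the maternally expressed noncoding RNA of the same domain, measured 1857 and 1911 CPM against 785 and 794 CPM (log2 fold change 1.25 ± 0.03, edgeR adjusted p = 2.36e-29), after 487 and 463 CPM on day 3. Both genes were high in both MM401 P2 libraries. Peg10, a paternally expressed gene of retroviral origin, measured 64.5 and 55.6 CPM against 779.8 and 771 CPM (log2 fold change -3.69 ± 0.05, edgeR adjusted p = 1.67e-26). Dlk1 was not called (log2 fold change 0.04 ± 0.07). Xist, the RNA that coats the inactive X chromosome, measured 119 and 133 CPM against 30.2 and 31.6 CPM (log2 fold change 2.03 ± 0.10, edgeR adjusted p = 3.57e-09), and 620.3 and 624 CPM in EpiSC. Its antisense gene Tsix was not called (log2 fold change 0.61 ± 0.28, edgeR adjusted p = 0.0506), and since the strand used in counting is not given, reads of these 2 genes cannot be told apart. Over 608 X-linked genes tested, 250 rose and 199 fell, with a median log2 fold change of 0.10, close to that of all genes.

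The 15 largest rises and falls, among called genes whose groups do not overlap and whose mean reached 10 CPM in MM401 P2 or ESC, joined these lists with genes outside them, and their values are a description. The largest fall was that of Trh, the thyrotropin-releasing hormone gene, with 1.18 and 1.41 CPM in MM401 P2 and 504 and 501 CPM in ESC (log2 fold change -8.59 ± 0.07, edgeR adjusted p = 1.53e-46). Trh was high in EpiSC, at 337 and 342 CPM, and low on day 3, at 5.55 and 4.51 CPM. Aire, known for its role in the thymus, measured 0.624 and 0.765 CPM against 88.6 and 86.4 CPM (log2 fold change -6.96 ± 0.10, edgeR adjusted p = 1.15e-39), and EpiSC held 1.999 and 1.94 CPM. The retinoic acid hydroxylase gene Cyp26a1 (log2 fold change -4.48 ± 0.17), the gap junction gene Gjb2 (-5.31 ± 0.21) and the endoderm factor gene Foxa2 (-4.16 ± 0.28) were other falls. Txnip was the largest rise. Gdf10, a member of the TGF-beta family, measured 30.7 and 29.9 CPM against 0.588 and 0.483 CPM (log2 fold change 5.81 ± 0.17, edgeR adjusted p = 7.59e-29). Aldh1a1, which makes retinoic acid, measured 13.2 and 14.2 CPM against 0.226 and 0.338 CPM (log2 fold change 5.59 ± 0.25, edgeR adjusted p = 3.51e-22). Mylk, the myosin light chain kinase of smooth muscle, measured 123.3 and 112 CPM against 4.52 and 4.01 CPM (log2 fold change 4.78 ± 0.10, edgeR adjusted p = 3.53e-34). The libraries of MM401 P2 were the high ones in all of these rises, as the choice of genes required. Serpina3n, an acute-phase protease inhibitor, measured 414 and 433 CPM against 18.8 and 17.3 CPM (log2 fold change 4.55 ± 0.06, edgeR adjusted p = 1.81e-40). It belongs to a cluster of near-identical genes, so its reads may be shared with Serpina3f, which also rose (4.47 ± 0.17).

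**Figure D5:**
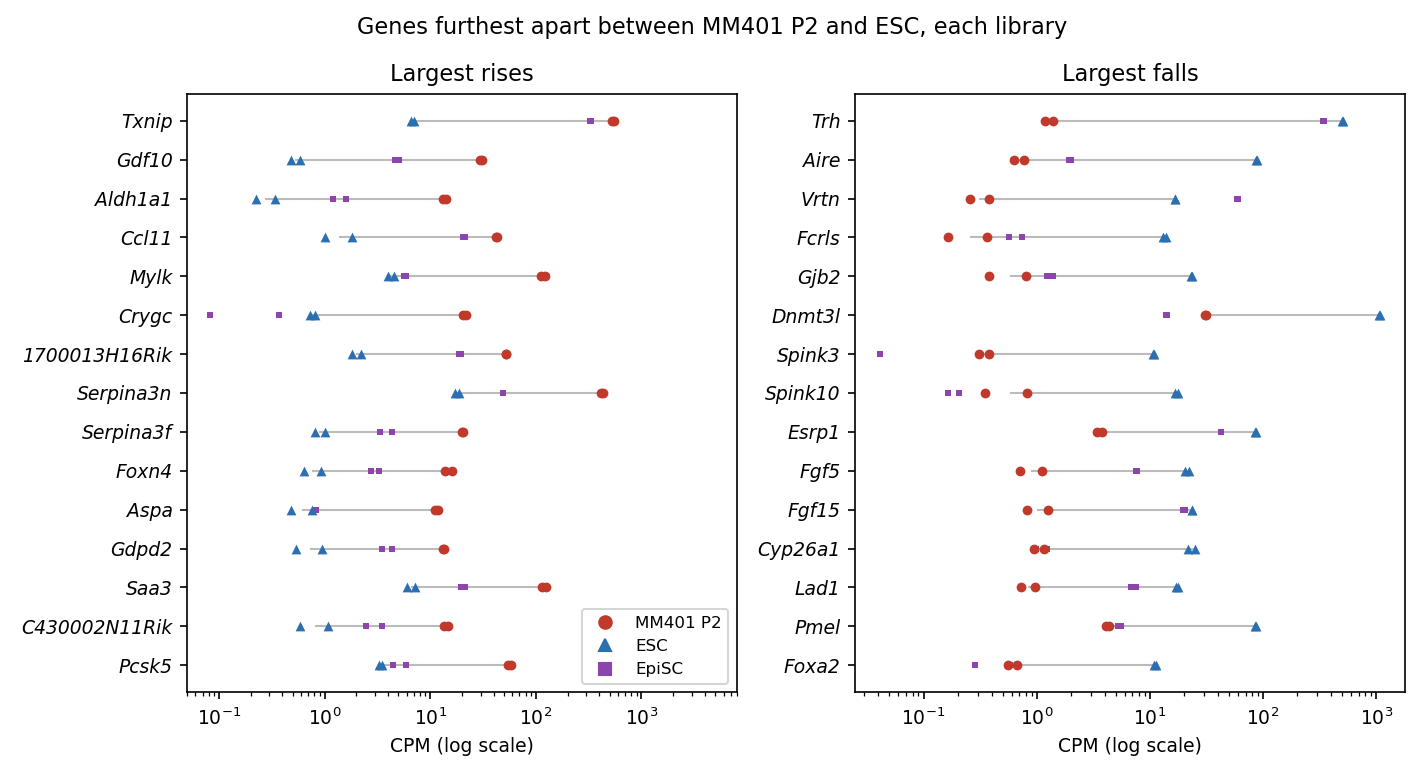
CPM on a log scale (horizontal axis) of the 15 largest called rises and the 15 largest called falls in each library of MM401 P2, ESC and EpiSC. Txnip leads the rises and Trh the falls. The MM401 P2 points stand clear of the ESC points in each row because only genes whose groups do not overlap were chosen.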

How the data were processed

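The 4 libraries compared (2 MM401 P2, 2 ESC) belong to a mouse series of 14. Per the labels' protocols, RNeasy kits with DNase treatment supplied the RNA for TruSeq libraries, read from a single end. The deposited table holds the authors' raw read counts per gene (24015 symbols), and no other values were used. The tools TopHat2, Subread and DESeq and the mouse build mm9 come from the submitters' processing notes, where versions are not given. Columns that fit no label (2) were left out, and 27 rows carried dates as names, with at most 0.254% of the counts in any library. Per the design text, replicates are biological duplicates. The second MM401 P2 library is titled P2b, and whether the 2 shared a culture is unknown, so the p-values reflect just the spread of these libraries, which may be technical.

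After filterByExpr and TMM scaling, the robust quasi-likelihood F test (edgeR 4.0.16, R 4.3.3, two-sided) was run with a mean for each group over all 14 libraries. Genes with a Benjamini-Hochberg adjusted p under 0.05 over the 16247 tested were called, and "rose" and "fell" are used of called genes. SE is the absolute log2 fold change over the square root of F. The pipeline was checked on simulated data. Members and gene lists, which are from general knowledge, were chosen with earlier results of these data known. Some genes belong to several lists. Named genes are a panel, the 15 largest called rises and falls whose groups do not overlap (minimum 10 CPM), in each list up to 8 called members with the largest change (minimum 5 CPM) and up to 5 not called or called the other way, and the 5 genes that differ most between the MM401 P2 libraries (minimum 50 CPM). Promoters and chromosomes came from RefSeq by symbol (23840 of 24013 symbols matched, synonyms included). A gene that met the rule for a closer look is not reported here. Alternatives, with DESeq2 1.42.0 among them, are given in the closing section.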

Additional observations from a re-analysis of the deposited data

Results flagged for a closer look

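Of the 490 named genes tested, 39 were called against ESC in opposite directions on day 3 and at P2 and called between the 2 times, and 11 of them moved by at least 0.5 on the log2 scale both ways, of which 10 are given here. Both contrasts share the ESC libraries, so the test of the difference is that of P2 against day 3, which does not use ESC. Tbx3, the naive T-box factor, was above ESC on day 3 and below it at P2, with a P2 minus day 3 log2 fold change of -1.36 ± 0.04 (edgeR adjusted p = 4.11e-26). By their fitted values, the other 9 genes were below ESC on day 3 and above it at P2. For Hoxa9, which is at a low level, the day 3 and ESC libraries overlapped, so its place below ESC on day 3 rests on the fit. Hoxa9 differed between the times by 2.60 ± 0.18 (edgeR adjusted p = 2.61e-15), and the imprinted noncoding RNA H19 by 1.99 ± 0.04 (edgeR adjusted p = 5.31e-35). The P2 minus day 3 log2 fold changes of inflammation genes were 3.26 for Ptx3, a soluble pattern receptor, and 2.58 for Lcn2, an iron-sequestering protein. Cdh11, a mesenchymal cadherin, differed by 1.48, and the CDK inhibitor gene Cdkn1c by 1.65. Fosl2, an AP-1 subunit, differed by 1.74. The nuclear RNA Neat1 differed by 1.92 and the protocadherin Pcdhga7 by 1.85. The feeder markers, all 20 of which were higher at P2 than on day 3, moved with these rises, and their part in them was not tested.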

How the results depend on the processing

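The count of 12136 called genes (6669 higher, 5467 lower) moved by over 1.5 times under 1 alternative, a test against a 2-fold change, which by construction asks for more: it called 2469 genes, 1380 higher and 1089 lower. It was 12119 with RLE size factors, 12130 with library totals, 12283 without the filter, 11584 with the Wald test of DESeq2, 12043 in a fit of the 4 libraries alone, 11777 after thinning to the shallowest library, 12132 without Rn45s and 10624 (5634 higher, 4990 lower) without the 1800 genes that follow the feeder markers. Leaving out each library gave 11003 to 11800. With a replicate block it was 12125 (6668 higher, 5457 lower). Same-numbered libraries of MM401 P2 and ESC did not deviate together (correlation -0.00823, and -0.0743 to 0.0697 over all 21 pairs of groups, 11494 genes). No pairing by number was seen. It might not show, since the ESC replicates differ by little more than counting noise. Scalings moved the median of all genes, 0.08, to between 0.037 and 0.088. None of the 490 named genes was called in the other direction, but 7 list medians changed sign under some setting. Cleavage stage went from -0.78 to 0.62 in the fit of the 4 libraries alone, and neuroectoderm from 0.10 to between -0.35 and -0.10 in that fit, after thinning and without either ESC library. Without the feeder-following genes, macrophage and blood went from -0.35 to 0.27, collagen chains from 0.98 to -0.24, LIF and STAT3 from 0.09 to -0.09 and the respiratory chain from -0.02 to 0.00. The imprinted list, at 0.04, lay between -0.03 and -0.01 without these genes, with RLE, with DESeq2 and in the fit of 4 libraries. The cause was not tested, except that fewer genes are left without the feeder-following ones. Leaving these out also moved mitotic falls from 5 to 2, threonine, glycine and folate rises from 4 to 2, histone rises from 2 to 0, and from 2 to 1 the falls of mesenchymal genes and Nrf2 targets and the rises of glycolysis, DNA methylation and MLL genes. A group at 0 touched 54 tested genes, and with these at a floor of 3 counts over the group the protocadherin median was 0.57 in place of 0.64. Leaving out a library leaves its group with 1, which is assumed to vary like the other groups.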

Other observations

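The counts of further lists stand beside the shares of all genes, of which 41.0% rose and 33.6% fell. Of 17 germ line genes tested, 8 rose and 5 fell, with a median log2 fold change of 0.40. Dazl, an RNA-binding protein of germ cells, measured 86.9 and 90.7 CPM in MM401 P2 and 14.1 and 13.97 CPM in ESC (log2 fold change 2.66 ± 0.08, edgeR adjusted p = 1.99e-23). Ddx4, a helicase of germ cells, rose as well (1.43 ± 0.11). Of 10 cleavage stage genes, 3 rose and 5 fell. Clustered protocadherins, which give neurons surface identities, rose in 19 of 44 genes and fell in 1, with 13 to 18 rises when each library was left out. Pcdhgc3, a member of the gamma cluster, measured 225 and 198 CPM against 44.7 and 45.7 CPM (log2 fold change 2.23 ± 0.06, edgeR adjusted p = 5.44e-30), and members of this family share their last exons.

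Markers of other lineages moved in both directions. Of 15 trophoblast genes, 1 rose and 11 fell (median log2 fold change -0.57), of 15 primitive streak and mesoderm genes, 3 rose and 8 fell (-0.80), and of 13 neuroectoderm genes, 4 rose and 6 fell (0.10). The sign of the neuroectoderm median is not stable, at -0.35 in a fit of the 4 libraries alone, -0.18 after thinning, -0.10 without ESC replicate 1 and -0.11 without ESC replicate 2, and 2 of 9 genes rose without those that follow the feeder markers. The neural factor gene Sox1 rose (log2 fold change 2.27 ± 0.11). Of 15 endothelial genes, 4 rose and 8 fell, and of 13 muscle and cartilage genes, 4 rose and 5 fell. Of 18 replication-dependent histone genes, whose RNA lacks a poly(A) tail, 2 rose and 2 fell, with 1 fall without ESC replicate 1. Of 7 noncoding RNAs listed for library composition, 6 rose and 0 fell, and Malat1, a nuclear RNA, rose by a log2 fold change of 2.30 ± 0.05. Xist and Neat1 are among the rises, so the count does not report library composition alone.

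The 2 MM401 P2 libraries differed most, among genes of at least 50 CPM, in Gm1821 (41.1 and 60.9 CPM in replicates 1 and 2), Ago2 (153 and 115 CPM), Vps13c (77.2 and 59.9 CPM), Arid5b (108 and 83.7 CPM) and Gm17066 (68.1 and 87.4 CPM). Median log2 fold changes by chromosome ran from -0.07 on chromosome 17 to 0.21 on chromosome 3.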
